A study of Homo sapiens with 18 samples.

Results

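ARC, RASD1, C11orf96, SGK1 and PLK2 are 5 genes whose RNA was low in solvent-treated KBM7 cells and stood higher after treatment with degraders of cyclin K or an inhibitor of its partner kinases CDK12 and CDK13, in most cases many-fold. They were chosen by measured values of these same libraries: large rises over DMSO relative to the other genes, and levels above DMSO relative to spike-in RNA. The gene rows were found by their Ensembl identifiers through GENCODE release 29. The 5 genes are among 58051 gene rows, of which 15055 passed a filter on low counts, and all 5 passed. Because the differences of dCeMM-2, dCeMM-3, dCeMM-4 and THZ531 from DMSO entered the choice, they are described below with no p-value. The choice does not hold for every gene in every group. With the cyclin K degrader dCeMM-3, C11orf96, PLK2 and SGK1 were only 1.63-fold, 1.49-fold and 1.37-fold above DMSO relative to other genes, and lay below DMSO on the spike-in scale.

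The 5 genes belong to several signalling contexts. ARC (activity-regulated cytoskeleton-associated protein) is an immediate early gene of neurons, whose capsid-like protein takes part in glutamate receptor endocytosis. RASD1 is a small Ras-like GTPase first described as induced by dexamethasone, SGK1 is the serum- and glucocorticoid-regulated kinase, and PLK2 is a serum-inducible polo-like kinase of centriole duplication. The product of C11orf96 is little studied. Immediate early genes are as a class short and quickly transcribed, with unstable mRNAs. Cyclin K binds and activates CDK12 and CDK13, which phosphorylate the tail of RNA polymerase II and sustain elongation, above all through long genes.

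KBM7 is a near-haploid human leukaemia line, derived from chronic myelogenous leukaemia. Every group was treated for 5 h and had 3 libraries. The controls received the solvent DMSO. One group received dCeMM-1, known to degrade the splicing factor RBM39, and 3 groups received a compound known to degrade cyclin K, namely dCeMM-2, dCeMM-3 or dCeMM-4, and each dCeMM compound was given at 10 times its EC50. The sixth group received 600 nM THZ531, which inhibits CDK12 and CDK13 covalently. The dose of THZ531 is thus not matched to the others. All contrasts with DMSO share the same 3 DMSO libraries, and 1 cell line was used. The labels are silent on whether replicate libraries stem from different cultures, so p-values measure only how far these libraries spread.

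Gene counts per library ranged from 4598576 to 17943571, with the lowest value in DMSO replicate 3. No 2 libraries held identical counts. Levels are given as TMM-scaled CPM (reads of a gene relative to the scaled library size), which are relative to the other genes, and as reads per 1000 reads of the added ERCC and SIRV RNAs, which are relative to the RNA added. The labels do not state how much of it was added to each sample. Of all assigned reads, spike-in reads made up 0.179% ± 0.020 (SD, n = 3) in DMSO and 0.176% ± 0.0193 after dCeMM-1. They were 0.512% ± 0.0784 after dCeMM-2, 0.542% ± 0.0699 after dCeMM-3, 0.234% ± 0.0497 after dCeMM-4 and 0.531% ± 0.0992 after THZ531. Over all tested genes, the median log2 fold change from DMSO was therefore -1.80 with dCeMM-2, -1.96 with dCeMM-3, -0.56 with dCeMM-4 and -1.94 with THZ531 on the spike-in scale, against -0.02, -0.15, 0.01 and -0.10 on the TMM scale. In such bulk libraries, fewer cells and less RNA per cell cannot be told apart. All 7 leukocyte markers examined had a mean above 5 CPM in every group, with PTPRC, the CD45 antigen, at 216 CPM or more in every library, and summed to 2179 to 2244 CPM in DMSO and 3107 to 3254 CPM after dCeMM-3. None of 6 neuron markers reached a mean of 5 CPM in any group, although ARC is best known from neurons, and they summed to 0.752 to 3.59 CPM. Of 3 fibroblast markers, DCN was at 0 in all libraries, COL1A1 at 0.632 to 3.90 CPM and COL1A2 at 0.299 to 1.77 CPM. Among 3 T cell receptor components, only CD3D was well above 5 CPM throughout, at 63.0 to 151 CPM. CD3E was at 1.33 to 4.12 CPM and CD3G at 0 to 0.246 CPM.

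The genes lie on 5 chromosomes (GRCh38). ARC (ENSG00000198576) spans 3429 bp at chr8:142611044-142614472, RASD1 (ENSG00000108551) spans 1959 bp at chr17:17494437-17496395, and PLK2 (ENSG00000145632) spans 6279 bp at chr5:58453982-58460260, all on the minus strand. C11orf96 (ENSG00000187479) is a gene of 1 exon and 1834 bp at chr11:43942505-43944338 on the plus strand. SGK1 (ENSG00000118515) spans 148867 bp at chr6:134169246-134318112 on the minus strand and has 28 annotated transcript starts.

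By annotated span, all but SGK1 are thus compact, with under 10 kb, as are 18.7% of the 12332 tested protein-coding genes. The median span of those genes is 33221 bp. The span of SGK1 covers all of its 28 annotated transcript starts. A RefSeq promoter of SGK1 with the stretch chr6:134174872-134174901 lies near position 134169246, the 3′ end of the gene on the minus strand. A transcript from that promoter to this end would be far shorter than the annotated span. Which SGK1 starts were in use was not tested. ARC has at most 3 exons and RASD1 at most 2 per transcript, SGK1 has up to 14 and PLK2 up to 15, beside a median of 10. Annotated genes that overlap C11orf96 or SGK1 held at most 18 reads over all libraries together.

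RefSeq promoter sequences (GRCh38.p14) were matched for RASD1, SGK1 and PLK2, 3 of the 5 genes, while ARC and C11orf96 had no entry in the table. RASD1 is shown in full because its 250 bases upstream of the start overlap no annotated exon. They lie at chr17:17496396-17496645 on the minus strand, with the motifs GGGCGGGG and TATAAG in capitals:
RASD1: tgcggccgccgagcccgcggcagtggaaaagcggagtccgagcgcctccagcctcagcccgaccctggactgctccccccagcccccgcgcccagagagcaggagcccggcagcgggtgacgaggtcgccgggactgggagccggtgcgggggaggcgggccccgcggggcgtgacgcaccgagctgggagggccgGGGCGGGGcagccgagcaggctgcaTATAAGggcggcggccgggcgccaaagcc

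The stretch from 35 to 6 bases before the start is shown for 1 promoter of each of the 3 genes, since each stretch carries the same TATA-like hexamer. Capitals mark TATAAG, and the positions are chr17:17496401-17496430 for RASD1, chr6:134174872-134174901 for the third of 3 SGK1 promoters in the table and chr5:58460092-58460121 for PLK2, all on the minus strand:
RASD1: gctgcaTATAAGggcggcggccgggcgcca
SGK1: gtgcctttttTATAAGgccgagcgcgcggc
PLK2: ccccgtaTATAAGacttcgccgagcgctct

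TATAAG began 29 bases before the start of RASD1, 25 before that of SGK1 and 28 before that of PLK2. This motif was chosen after these sequences had been seen. It occurs on either strand of 5.59% of 35116 RefSeq promoters of the same 300 bases, and on the gene's strand within the shown stretch in 0.994% of them. In SGK1 it overlaps TATAAA read on the other strand, a motif found in 11.5% of promoters. GGGCGGGG, found in 22.8% of promoters, was present in all 3, once in RASD1 and PLK2 and 4 times in the SGK1 promoter shown. SGK1 promoters 1 and 2 held neither TATAAG nor GGGCGGGG. Of the motifs searched they held only TATAAA, 96 and 15 bases before their starts. TGACGT, found in 7.98%, was present in PLK2 only, 77 bases before the start. The full site TGACGTCA (1.85% of promoters), TGACTCA (4.95%) and the CArG box (1.29%), each searched on both strands, were not in the windows of these genes. A match or its absence describes letters in these windows only.

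ARC was close to the detection limit in DMSO and among the more abundant of the 5 genes after dCeMM-2. The 3 DMSO libraries held 18, 13 and 2 reads of ARC, which are 1.04, 0.678 and 0.383 CPM. The dCeMM-1 libraries held 2.03, 2.23 and 1.65 CPM, and the dCeMM-4 libraries 7.09, 8.46 and 8.72 CPM. ARC thus had a narrow range in each treated group and no overlap of these groups with DMSO. The dCeMM-3 libraries held 22.5, 22.6 and 21.8 CPM, the THZ531 libraries 54.3, 49.995 and 56.7 CPM, and the dCeMM-2 libraries 91.9, 78.5 and 72.1 CPM. All 6 groups were separate from each other, in the order dCeMM-2, THZ531, dCeMM-3, dCeMM-4, dCeMM-1 and DMSO. Per 1000 spike-in reads, ARC stood at 0.562, 0.457 and 0.259 in DMSO and at 15.9, 16.9 and 11.4 with dCeMM-2. It stood at 4.04, 3.34 and 4.47 with dCeMM-3, at 2.31, 4.17 and 3.96 with dCeMM-4, at 11.3, 7.86 and 8.995 with THZ531 and at 1.21, 1.40 and 1.22 with dCeMM-1. On that scale dCeMM-3 and dCeMM-4 overlapped, and the other neighbours in the order did not.

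RASD1, the dexamethasone-inducible GTPase, was the least abundant of the 5 in DMSO. Its DMSO libraries held 4, 2 and 1 reads, or 0.231, 0.104 and 0.192 CPM, so that every fold change against them rests on 7 reads. Each dCeMM-1 library held 8 reads, or 0.525, 0.397 and 0.426 CPM. These values do not overlap, although single reads matter at this level. RASD1 stood at 2.37, 3.11 and 3.18 CPM with dCeMM-3 and at 2.24, 4.06 and 3.05 CPM with dCeMM-4. It stood at 10.5, 11.8 and 10.8 CPM with THZ531 and at 17.5, 16.2 and 20.4 CPM with dCeMM-2. The dCeMM-3 and dCeMM-4 groups overlapped, and all other neighbours in the order were separate. Per 1000 spike-in reads, RASD1 stood at 0.125, 0.0703 and 0.129 in DMSO, at 0.426, 0.459 and 0.652 with dCeMM-3 and at 0.729, 1.999 and 1.38 with dCeMM-4. It stood at 2.18, 1.85 and 1.71 with THZ531, at 3.02, 3.49 and 3.24 with dCeMM-2 and at 0.312, 0.250 and 0.315 with dCeMM-1. All 5 of these groups remained above DMSO on this scale, and dCeMM-4 overlapped with THZ531.

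C11orf96 had a different order of groups from ARC and RASD1, with lower relative levels after dCeMM-3 and dCeMM-1. It was at 1.68, 1.83 and 1.92 CPM in DMSO, at 38.2, 30.3 and 29.997 CPM with dCeMM-2 and at 30.7, 27.5 and 29.6 CPM with THZ531. The last 2 groups overlapped and stood well apart from DMSO. It was at 11.7, 11.5 and 13.5 CPM with dCeMM-4, but at 3.22, 2.70 and 2.70 CPM with dCeMM-3. The dCeMM-1 libraries, at 1.18, 1.59 and 1.54 CPM, lay just below DMSO. Per 1000 spike-in reads, the DMSO libraries stood at 0.905, 1.23 and 1.29, the dCeMM-1 libraries at 0.702, 0.998 and 1.14 and the dCeMM-3 libraries at 0.579, 0.398 and 0.554. The dCeMM-3 libraries were thus above DMSO relative to other genes and below it relative to spike-in RNA. By this measure dCeMM-2, at 6.60, 6.52 and 4.75, dCeMM-4, at 3.805, 5.68 and 6.14, and THZ531, at 6.36, 4.32 and 4.70, overlapped with each other.

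SGK1, a kinase related to AKT that regulates ion channels and FOXO factors, followed the same division. It was at 2.72, 2.35 and 2.30 CPM in DMSO, at 50.9, 57.0 and 42.8 CPM with dCeMM-2 and at 41.3, 37.5 and 32.7 CPM with THZ531. The lowest dCeMM-2 library was just above the highest THZ531 library. It was at 7.27, 9.04 and 7.56 CPM with dCeMM-4, at 3.49, 3.84 and 3.02 CPM with dCeMM-3 and at 1.77, 2.03 and 1.76 CPM with dCeMM-1. All groups were separate on this scale, dCeMM-3 above DMSO and dCeMM-1 below it. Per 1000 spike-in reads, SGK1 stood at 1.47, 1.58 and 1.55 in DMSO, at 1.05, 1.28 and 1.30 with dCeMM-1 and at 0.627, 0.566 and 0.619 with dCeMM-3. It stood at 8.81, 12.3 and 6.78 with dCeMM-2, at 8.55, 5.89 and 5.19 with THZ531 and at 2.37, 4.46 and 3.43 with dCeMM-4. Here dCeMM-2 and THZ531 overlapped, and every dCeMM-3 library lay below every DMSO library.

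PLK2, the polo-like kinase, had the highest CPM of the 5 in DMSO and the tightest replicates after dCeMM-2. It was at 4.51, 4.18 and 3.07 CPM in DMSO, at 73.2, 76.8 and 74.2 CPM with dCeMM-2 and at 50.5, 43.5 and 45.5 CPM with THZ531. The 3 groups were separate. It was at 25.4, 23.8 and 22.7 CPM with dCeMM-4, at 5.79, 6.12 and 6.75 CPM with dCeMM-3 and at 4.46, 4.07 and 4.47 CPM with dCeMM-1. The dCeMM-1 and DMSO groups overlapped, and the other neighbours did not. Per 1000 spike-in reads, PLK2 stood at 2.43, 2.81 and 2.07 in DMSO, at 1.04, 0.903 and 1.39 with dCeMM-3 and at 8.26, 11.7 and 10.3 with dCeMM-4. With dCeMM-2 it stood at 12.6, 16.5 and 11.8, with THZ531 at 10.5, 6.84 and 7.22 and with dCeMM-1 at 2.65, 2.56 and 3.31. The dCeMM-4 and THZ531 groups exchanged places between the scales and overlapped on the spike-in scale.

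**Figure D1:**
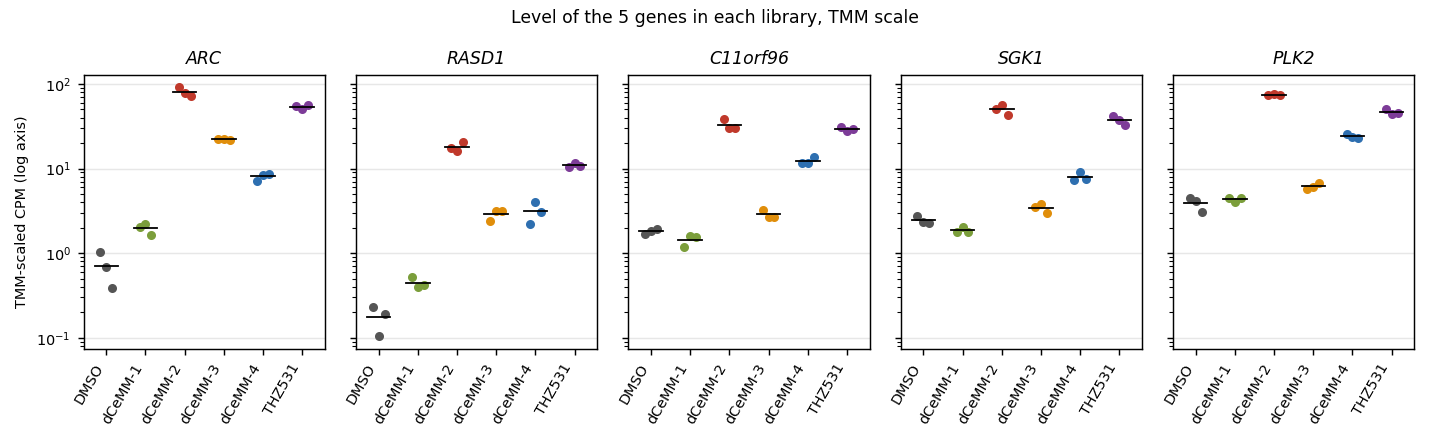
TMM-scaled CPM (log axis) of ARC, RASD1, C11orf96, SGK1 and PLK2 in each library of the 6 groups, 1 point per library, with the group mean as a bar. The dCeMM-3 libraries sit at 21.8 to 22.6 CPM for ARC, far above DMSO, and at 3.02 to 3.84 CPM for SGK1, just above DMSO.

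**Figure D2:**
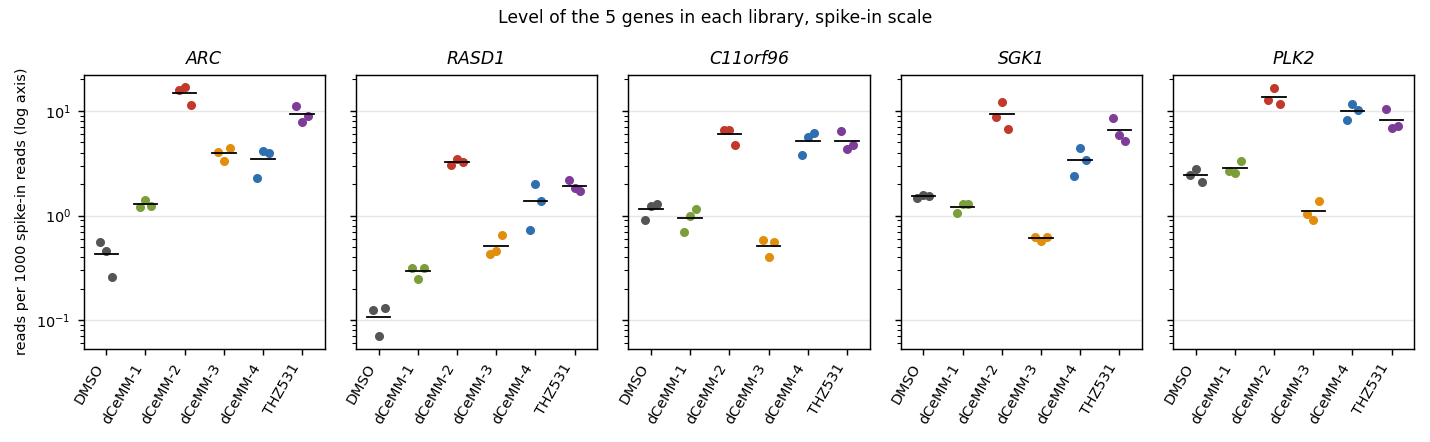
Reads per 1000 spike-in reads (log axis) of the same 5 genes in each library, with the group mean as a bar. The dCeMM-3 libraries lie above DMSO for ARC and RASD1 and below DMSO for C11orf96, SGK1 and PLK2.

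Levels between genes were compared per kb of exonic length, taken as the union of the exons of all annotated transcripts of a gene. In DMSO, C11orf96 (0.985 ± 0.0659, SD, n = 3) and PLK2 (0.822 ± 0.159) had the highest CPM per kb, SGK1 had 0.246 ± 0.0229, ARC 0.234 ± 0.1102 and RASD1 0.101 ± 0.0372. After dCeMM-2 the order was different, with ARC first at 27.0 ± 3.37 CPM per kb, followed by C11orf96 at 17.9 ± 2.53, PLK2 at 15.7 ± 0.390, RASD1 at 10.3 ± 1.25 and SGK1 at 5.03 ± 0.716. By this measure ARC and SGK1 had nearly the same level in DMSO and differed severalfold after dCeMM-2. The length used was 2991 bases for ARC but 9992 for SGK1, which has 28 annotated transcript starts. Where the transcripts present are shorter than this union, the level per kb is understated, so the place of SGK1 depends on the divisor.

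The differences of the 4 other compounds from DMSO chose the genes and are given as a description. On the TMM scale, the fitted log2 fold change with dCeMM-2 was 6.67 (SE 0.16) for ARC and 6.66 (SE 0.28) for RASD1. It was 4.34 (SE 0.14) for SGK1, 4.21 (SE 0.15) for C11orf96 and 4.17 (SE 0.11) for PLK2. ARC and RASD1 were thus near 100-fold above DMSO (fitted folds 102 and 101), and the other 3 between 17.97-fold and 20.2-fold. From summed reads scaled by depth, the ratio for RASD1 was 105, with a 95% counting interval of 50.7 to 263 that covers counting error only. With THZ531 the log2 fold changes were 6.07 (SE 0.17) for ARC, 5.96 (SE 0.30) for RASD1, 4.04 (SE 0.15) for C11orf96, 3.89 (SE 0.15) for SGK1 and 3.48 (SE 0.11) for PLK2. The same division into ARC and RASD1 on one side and the other 3 on the other was present with both compounds.

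With dCeMM-3 the division was widest. The log2 fold change was 4.80 (SE 0.19) for ARC and 4.01 (SE 0.40) for RASD1, but 0.71 (SE 0.22) for C11orf96, 0.58 (SE 0.15) for PLK2 and 0.46 (SE 0.21) for SGK1. With dCeMM-4, in contrast, RASD1 had the largest value, 4.15 (SE 0.37), followed by ARC with 3.34 (SE 0.21), C11orf96 with 2.78 (SE 0.17), PLK2 with 2.53 (SE 0.12) and SGK1 with 1.67 (SE 0.17). Counted against the whole table, 5 of the 5 genes were at least 2-fold above DMSO with dCeMM-2, where 20.1% of all tested genes were, 5 with dCeMM-4 (9.51%), 5 with THZ531 (19.3%) and 2 with dCeMM-3 (20.2%). All 3 treated libraries were above all 3 DMSO libraries for 5 of 5 genes with each of the 4 compounds, as they were for 37.1% of all genes with dCeMM-2, 35.1% with dCeMM-3, 34.4% with dCeMM-4 and 35.8% with THZ531. Since these contrasts chose the genes, the counts support nothing.

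Relative to spike-in reads, the differences of these 4 compounds were smaller. The log2 fold change with dCeMM-2 was 4.95 (SE 0.32) for ARC, 4.95 (SE 0.44) for RASD1, 2.60 (SE 0.27) for SGK1, 2.45 (SE 0.25) for PLK2 and 2.43 (SE 0.28) for C11orf96. With THZ531 it was 4.29 (SE 0.32), 4.18 (SE 0.46), 2.09 (SE 0.27), 1.70 (SE 0.25) and 2.21 (SE 0.28) in the same order of genes. With dCeMM-4 it was 2.86 (SE 0.32) for ARC, 3.68 (SE 0.48) for RASD1, 1.15 (SE 0.28) for SGK1, 2.01 (SE 0.25) for PLK2 and 2.23 (SE 0.29) for C11orf96. These values lie far from the medians of all genes, which were negative. With dCeMM-3, ARC (3.05, SE 0.32) and RASD1 (2.28, SE 0.53) were above DMSO. C11orf96 (-1.10, SE 0.32), PLK2 (-1.18, SE 0.27) and SGK1 (-1.33, SE 0.30) were below DMSO by 2.15-fold, 2.26-fold and 2.52-fold, though above the median of all genes. At least 2-fold above DMSO on this scale were 5 of 5 genes with dCeMM-2, THZ531 and dCeMM-4, beside 1.57%, 1.57% and 3.66% of all genes, and 2 of 5 with dCeMM-3, beside 1.36%. Their libraries did not overlap with DMSO, and lay above it, in 5 of 5 genes with dCeMM-2 (1.71% of all genes), dCeMM-4 (5.91%) and THZ531 (1.57%) and in 2 of 5 with dCeMM-3 (1.19%). The remaining 3 lay wholly below DMSO with dCeMM-3, as did 83.9% of all genes.

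**Figure D3:**
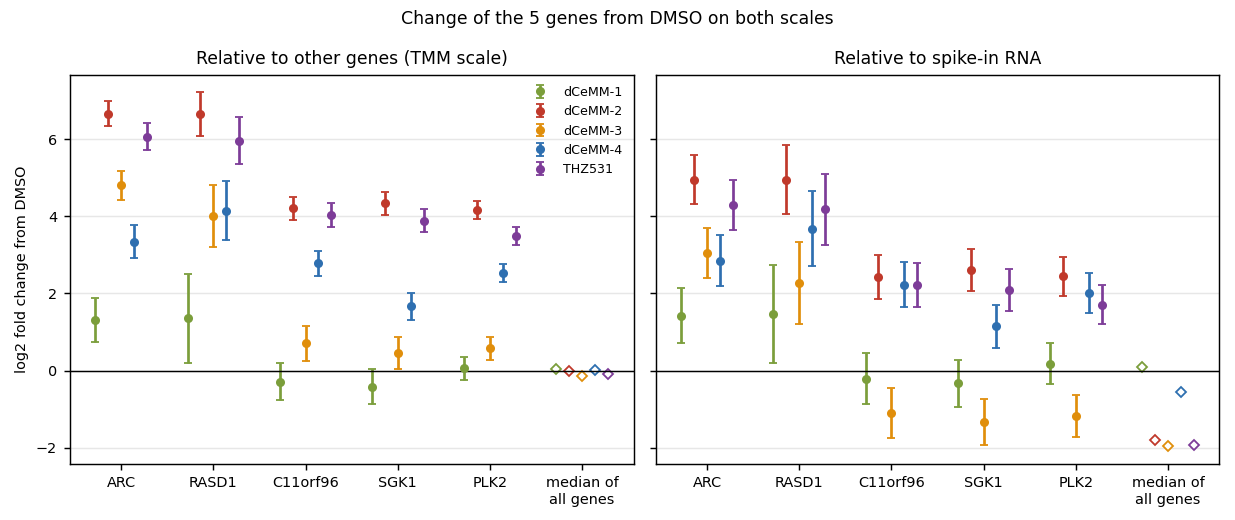
Log2 fold change from DMSO of the 5 genes with each compound, on the TMM scale (left) and the spike-in scale (right), with 95% intervals from 3 libraries per group as bars. Diamonds give the median of all 15055 tested genes. With dCeMM-3, ARC and RASD1 keep positive values on both scales, and C11orf96, SGK1 and PLK2 move from above 0 to below 0.

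The 5 genes stood high in the order of all 15055 genes, but other genes of like size were not chosen. By the TMM fold change with dCeMM-2, ARC had rank 5, RASD1 6, SGK1 61, C11orf96 65 and PLK2 69. With dCeMM-3, ARC had rank 34 and RASD1 67, while C11orf96, PLK2 and SGK1 had ranks 4227, 4745 and 5232. Among protein-coding genes with at least 5 CPM, IER3 with a log2 fold change of 5.79 and IER5L with 4.54 stood between RASD1 and SGK1 with dCeMM-2, and CDKN1A with 4.09 and ID2 with 3.75 stood just below PLK2.

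The libraries of dCeMM-1, the RBM39 degrader, did not enter the choice, and this contrast was tested. The DMSO libraries did enter it, and choosing genes by their rise over DMSO favours low DMSO values, so the p-values below are not free of the choice. With edgeR's quasi-likelihood test and Benjamini-Hochberg adjustment over 15055 genes, ARC rose, with a log2 fold change of 1.31 (SE 0.28, 95% interval 0.75 to 1.87, adjusted p = 0.000332). All 3 dCeMM-1 libraries were above all 3 DMSO libraries, and the totals were 107 reads against 33. Scaled by spike-in reads, the log2 fold change of ARC was 1.43 (SE 0.36, adjusted p = 0.00607 by the same edgeR test). That call was lost without DMSO replicate 2 (1.39, adjusted p = 0.0624, edgeR). RASD1 had a log2 fold change of 1.35 (SE 0.57, 95% interval 0.21 to 2.498), with 24 reads against 7, and did not pass after adjustment (adjusted p = 0.0654, and 0.172 on the spike-in scale, edgeR). RASD1 passed the filter on low counts through the groups where it was high: with the dCeMM-1 and DMSO libraries alone it did not pass, and the other 4 genes did.

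The other 3 genes did not pass with dCeMM-1. C11orf96 had a log2 fold change of -0.29 (SE 0.24, 95% interval -0.77 to 0.19, adjusted p = 0.388), SGK1 of -0.42 (SE 0.22, -0.87 to 0.03, adjusted p = 0.151) and PLK2 of 0.06 (SE 0.15, -0.24 to 0.36, adjusted p = 0.834), all by edgeR. In all, 1 of 5 genes was called higher and 0 lower, where 16.5% of all genes were called higher and 14.8% lower. With spike-in scaling 1 was called higher, beside 2.83% of all genes, and 0 lower, beside 1.34%. The dCeMM-1 libraries lay wholly above DMSO for ARC and RASD1 (23.8% of all genes on the TMM scale and 19.4% on the spike-in scale). They lay wholly below DMSO for C11orf96 and SGK1 on the TMM scale (20.6% of all genes), and for SGK1 alone on the spike-in scale (6.66%). The intervals leave room for a fall of SGK1 by 0.87 and for a rise of PLK2 by 0.36 on the log2 scale, and do not reach a change of the size seen with dCeMM-2 for either gene.

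The 3 cyclin K degraders were set against each other at the same multiple of EC50, which gave 15 differences, described with intervals because these libraries also entered the choice. With dCeMM-2 all 5 genes were at least 2-fold above dCeMM-3 on the TMM scale, as were 12.8% of all genes. The log2 difference was 1.87 (95% interval 1.67 to 2.06) for ARC and 2.65 (2.31 to 2.99) for RASD1. It was 3.502 (3.22 to 3.79) for C11orf96, 3.59 (3.38 to 3.801) for PLK2 and 3.88 (3.60 to 4.16) for SGK1. The gap was thus larger for the 3 genes near DMSO level with dCeMM-3, and the spike-in scale gave 1.90, 2.67, 3.53, 3.62 and 3.94 in the same order.

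All 5 genes were also at least 2-fold higher with dCeMM-2 than with dCeMM-4 on the TMM scale, as were 18.8% of all genes. The log2 difference was 3.32 (3.11 to 3.54) for ARC, 2.66 (2.43 to 2.89) for SGK1, 2.51 (2.19 to 2.83) for RASD1, 1.64 (1.47 to 1.81) for PLK2 and 1.43 (1.21 to 1.65) for C11orf96. With spike-in scaling the difference of C11orf96 (0.20, -0.27 to 0.67) had an interval that includes 0. That of PLK2 was 0.44 (-0.01 to 0.88). Its lower end lies so near 0 that the inclusion of 0 depends on how the interval was built. Between dCeMM-3 and dCeMM-4 the genes went in different directions. ARC was higher with dCeMM-3 by 1.46 (1.22 to 1.69) on the TMM scale, 1 gene of 5 at least 2-fold higher beside 23.4% of all genes. C11orf96 (-2.07, -2.38 to -1.77), PLK2 (-1.95, -2.17 to -1.72) and SGK1 (-1.22, -1.55 to -0.89) were lower with dCeMM-3, 3 of 5 at least 2-fold lower beside 28.7%. RASD1 differed by -0.14 (-0.56 to 0.28), an interval that includes 0 and leaves out a 2-fold difference. On the spike-in scale the ARC difference was 0.19 (-0.28 to 0.66), while RASD1 was lower with dCeMM-3 by 1.40 (-1.998 to -0.81).

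THZ531 was given at a dose that is not matched, so its values are set beside the others only. No gene of the 5 was at least 2-fold higher with dCeMM-2 than with THZ531 on the TMM scale, where 4.04% of all genes were. The log2 difference was 0.60 for ARC, 0.70 for RASD1, 0.45 for SGK1, 0.68 for PLK2 and 0.17 for C11orf96, and the interval of C11orf96 (-0.03 to 0.38) included 0. With dCeMM-3 all 5 were at least 2-fold lower than with THZ531, beside 8.92% of all genes, from -1.27 for ARC to -3.44 for SGK1. With dCeMM-4, 4 of 5 were at least 2-fold lower than with THZ531, beside 19.2%, and PLK2 differed by -0.96 (-1.13 to -0.78). On the spike-in scale C11orf96 (0.02, -0.45 to 0.49) and PLK2 (0.30, -0.14 to 0.75) had dCeMM-4 values at or above those of THZ531, with intervals that include 0. RASD1 was lower with dCeMM-4 there (-0.50), with an interval of -1.04 to 0.04.

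Likeness of pattern was measured as the mean absolute difference of the 5 log2 fold changes from DMSO, in TMM units, which share the DMSO libraries. ARC and RASD1 differed by 0.35 on average. C11orf96 and PLK2 differed by 0.26, C11orf96 and SGK1 by 0.35 and SGK1 and PLK2 by 0.41. Between the 2 subsets the values ran from 2.14 to 2.45, so the set falls into a pair and a trio. Among 10488 other protein-coding genes with at least 5 CPM in their highest group, the nearest to both ARC (0.93) and RASD1 (1.08) was IER3, an immediate early gene with a mean of 0.160 CPM in DMSO. The next were the histone gene HIST4H4 (2.01 and 1.99) and CDKN1A (2.02 and 2.01), a little nearer to them than the trio. IER5L, a relative of the immediate early gene IER5, was the nearest to C11orf96 (0.31), SGK1 (0.41) and PLK2 (0.43). CDKN1A, which encodes the CDK inhibitor p21, and ID2, an inhibitor of helix-loop-helix factors, were the next for all 3, at 0.45 to 0.72. IER5L had log2 fold changes of 4.54 with dCeMM-2, 0.91 with dCeMM-3, 2.26 with dCeMM-4 and 4.45 with THZ531, from 8.002 CPM in DMSO.

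Other immediate early and serum response genes were followed in a list of 42, of which 38 were tested and the 5 genes are no part. BDNF, CTGF, EGR4 and NPAS4 did not pass the filter. With dCeMM-2, 27 of 38 rose and 4 fell, beside 37.1% and 41.2% of all genes, with a median of 1.33 against -0.02 over all genes. IER3, a stress-inducible survival gene, rose by 5.79 (SE 0.42), IER5L by 4.54 (SE 0.13) and GADD45B, a stress sensor, by 3.63 (SE 0.09), while the AP-1 subunit FOSL1 fell by 2.12 (SE 0.12) and EGR1 fell by 0.71 (SE 0.10). With THZ531, 22 rose and 12 fell (35.8% and 43.7% of all genes), with a median of 0.62 against -0.10. IER3 had 6.25 (SE 0.40), IER5L 4.45 (SE 0.13) and IER2 2.94 (SE 0.11), and FOSL1 -2.53 (SE 0.13). Of the genes named from this list, IER3 came closest in size to ARC and RASD1. Its DMSO mean was 0.160 CPM, and without DMSO replicate 2 its log2 fold change was 6.98 with dCeMM-2 and 7.43 with THZ531.

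For dCeMM-3 the list had 9 of 38 higher and 21 lower, beside 35.9% and 45.1% of all genes. Its median was -0.43 against -0.15, and whether the list differed from all genes was not tested. GADD45B rose by 2.23 (SE 0.10) and JUN by 1.76 (SE 0.12), while the ERK phosphatase genes DUSP5 and DUSP6 fell, with -4.03 (SE 0.23) and -3.87 (SE 0.09). With dCeMM-4, 26 rose and 6 fell (32.9% and 35.3%), with a median of 0.90 against 0.01. IER5L rose by 2.26 (SE 0.13), ATF3 by 2.05 (SE 0.09) and DUSP6 by 1.76 (SE 0.07), while EGR1 fell by 2.001 (SE 0.10) and FOS by 0.88 (SE 0.12). With dCeMM-1, 10 rose and 11 fell (16.5% and 14.8% of all genes), with a median of -0.07 against 0.03. TIPARP rose by 1.43 (SE 0.10), and EGR1 and FOS fell, with -3.05 (SE 0.11) and -2.85 (SE 0.15). The largest adjusted p among the genes named from this list, all in edgeR on the TMM scale, was 4.03e-08.

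Scaled by spike-in reads, fewer genes of the list rose with each compound, and more fell with each except dCeMM-1. With dCeMM-2, 10 rose and 18 fell, beside 1.48% and 83% of all genes, and with THZ531 10 rose and 25 fell (1.32% and 84.7%). With dCeMM-3, 1 rose and 34 fell (1.12% and 83.7%), and with dCeMM-4 14 rose and 7 fell (6.3% and 48%). With dCeMM-1, 5 rose and 4 fell (2.83% and 1.34%). IER3 (4.06 with dCeMM-2 and 4.48 with THZ531), IER5L (2.76 and 2.61) and GADD45B (1.84 with dCeMM-2) were above DMSO on this scale too, as ARC and RASD1 were. With dCeMM-3, GADD45B (0.40, adjusted p = 0.103, edgeR) and JUN (-0.09, adjusted p = 0.712, edgeR) did not pass on this scale.

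The list of glucocorticoid-induced genes, to which RASD1 and SGK1 are kin by their known inducer, had 19 genes, all tested. With dCeMM-2, 6 rose and 9 fell, beside 37.1% and 41.2% of all genes, with a median of -0.14 against -0.02. ERRFI1, a feedback inhibitor of EGFR, rose by 2.40 (SE 0.16) and TSC22D3 (GILZ) by 1.90 (SE 0.08), while SOCS1 fell by 1.69 (SE 0.13). With THZ531, 7 rose and 11 fell (35.8% and 43.7% of all genes), with a median of -0.80 against -0.10, with the metallothionein MT2A at 2.12 (SE 0.06) and SAP30 at -2.24 (SE 0.14). With dCeMM-3, 3 rose and 15 fell (35.9% and 45.1%), with a median of -1.37 against -0.15, among them TSC22D3 at 1.89 (SE 0.08) and DDIT4 at -2.80 (SE 0.10). With dCeMM-4, 13 rose and 3 fell (32.9% and 35.3%), with a median of 0.48 against 0.01, among them ERRFI1 at 2.06 (SE 0.16), KLF9 at 1.11 (SE 0.11) and NFKBIA at -1.29 (SE 0.07). With dCeMM-1, 4 rose and 5 fell (16.5% and 14.8%). Scaled by spike-in reads, 1 rose and 15 fell with dCeMM-2 (1.48% and 83% of all genes) and 4 rose and 4 fell with dCeMM-4 (6.3% and 48%). On that scale 0 rose and 17 fell with dCeMM-3 (1.12% and 83.7%), 0 rose and 16 fell with THZ531 (1.32% and 84.7%), and none of the 19 passed with dCeMM-1 (2.83% and 1.34%). TSC22D3 did not pass on that scale with dCeMM-2 (0.14, adjusted p = 0.553, edgeR) or dCeMM-3 (0.09, adjusted p = 0.700, edgeR), nor did MT2A with THZ531 (0.28, adjusted p = 0.179, edgeR).

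The third list held 26 relatives and partners of SGK1, PLK2 and RASD1, of which 21 were tested. DIRAS2, DIRAS3, PLK5, RASD2 and SGK2 did not pass the filter. With dCeMM-2, 7 rose and 11 fell, beside 37.1% and 41.2% of all genes, with a median of -0.25 against -0.02. FOXO1, a forkhead factor of the family that SGK1 phosphorylates, rose by 2.41 (SE 0.11), while PLK4, the master kinase of centriole duplication, fell by 2.07 (SE 0.11) and the mitotic kinase PLK1 fell by 1.53 (SE 0.08). PLK2 thus stood above DMSO where the polo-like kinase genes PLK1 and PLK4 fell. The same pair fell with dCeMM-3, PLK4 by 2.39 (SE 0.11) and PLK1 by 2.36 (SE 0.08), and with THZ531, with -2.30 (SE 0.11) and -1.997 (SE 0.08). NDRG1, a known SGK1 substrate, rose by 1.71 (SE 0.07) with dCeMM-3 and by 1.24 (SE 0.07) with THZ531, though on the spike-in scale it had -0.12 and -0.61. In all, 3 rose and 12 fell with dCeMM-3 (35.9% and 45.1% of all genes), 8 rose and 13 fell with THZ531 (35.8% and 43.7%), and 4 rose and 4 fell with dCeMM-1 (16.5% and 14.8%). With dCeMM-4, 7 rose and 8 fell (32.9% and 35.3%), with FOXO1 at 2.14 (SE 0.11) and SGK3 at -1.21 (SE 0.15). Scaled by spike-in reads, 2 rose and 17 fell with dCeMM-2 (1.48% and 83% of all genes) and 3 rose and 14 fell with dCeMM-4 (6.3% and 48%). On that scale 0 rose and 19 fell with dCeMM-3 (1.12% and 83.7%) and likewise with THZ531 (1.32% and 84.7%), and none of the 21 passed with dCeMM-1 (2.83% and 1.34%).

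**Figure D4:**
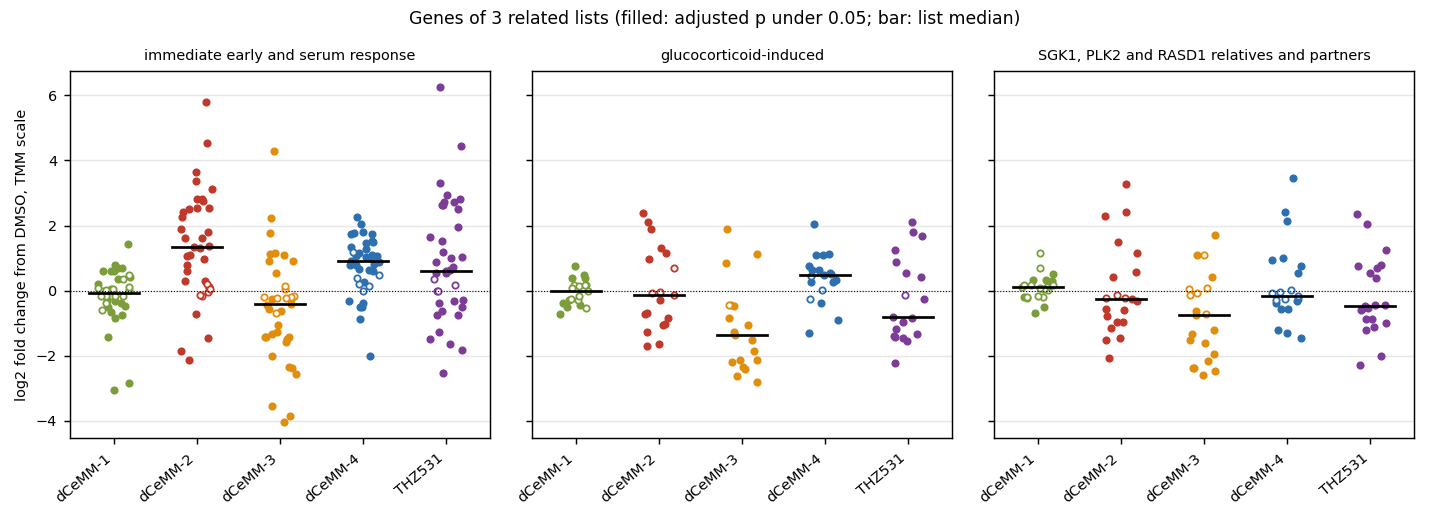
Log2 fold change from DMSO (TMM scale) of each tested gene of the 3 lists, 38, 19 and 21 genes, with each compound. Filled points passed an adjusted p under 0.05 and bars are list medians, which for immediate early genes run from -0.43 with dCeMM-3 to 1.33 with dCeMM-2.

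The nearest tested protein-coding genes on each side within 1 Mb were examined, 9 in all, since PLK2 had one on 1 side only. With dCeMM-2, 4 of 9 rose and 5 fell on the TMM scale (37.1% and 41.2% of all genes), and on the spike-in scale 0 rose and 8 fell (1.48% and 83%). The numbers were the same with dCeMM-3, where the shares of all genes were 35.9% and 45.1% on the TMM scale and 1.12% and 83.7% on the spike-in scale. With THZ531, 2 rose and 5 fell on the TMM scale (35.8% and 43.7%), and 0 rose and 8 fell on the spike-in scale (1.32% and 84.7%). With dCeMM-4, 0 rose and 3 fell (32.9% and 35.3%), and 0 rose and 5 fell on the spike-in scale (6.3% and 48%). With dCeMM-1, 3 rose and 3 fell (16.5% and 14.8%), and 1 rose and 0 fell on the spike-in scale (2.83% and 1.34%). MED9, a Mediator subunit whose gene ends 1.211 kb from RASD1 on the opposite strand, fell by 2.36 (SE 0.15) with dCeMM-2, by 2.53 (SE 0.15) with dCeMM-3, by 0.77 (SE 0.12) with dCeMM-4 and by 2.71 (SE 0.16) with THZ531. RASD1 and MED9 thus differed in direction with all 4 compounds. The rises of RASD1 entered the choice of the genes, and a fall like that of MED9 was common, in 35.3% to 45.1% of all genes. The strand setting of the counting is not stated, and reads of these 2 genes would be confused only where transcripts run past their annotated ends.

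PEMT, 9.168 kb from RASD1 on the other side, had 0.68 (SE 0.09) with dCeMM-2 and -1.12 on the spike-in scale. GAPT, 31.175 kb from PLK2, fell by 2.41 (SE 0.16) with dCeMM-2, by 3.38 (SE 0.18) with dCeMM-3 and by 2.85 (SE 0.17) with THZ531. With dCeMM-4 it had -0.21 (SE 0.12, adjusted p = 0.127, edgeR), and -0.75 on the spike-in scale (adjusted p = 0.00358, edgeR). ALKBH3 beside C11orf96 fell by 1.63 (SE 0.12) with dCeMM-2, and TBPL1 beside SGK1 fell by 1.84 (SE 0.12). JRK beside ARC fell by 0.60 (SE 0.11) with dCeMM-2, while ADGRB1 on the other side had 0.77 (SE 0.13), and -1.03 on the spike-in scale. ALDH8A1, 599.278 kb from SGK1, rose by 3.38 (SE 0.36) with dCeMM-1, from 0.311 to 3.07 CPM, while SGK1 itself did not pass in that comparison. ACCS beside C11orf96 had 0.40 (SE 0.16) with dCeMM-2, a call that was lost without DMSO replicate 1 (0.19), without DMSO replicate 3 (0.33) and without dCeMM-2 replicate 1 (0.21).

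**Figure D5:**
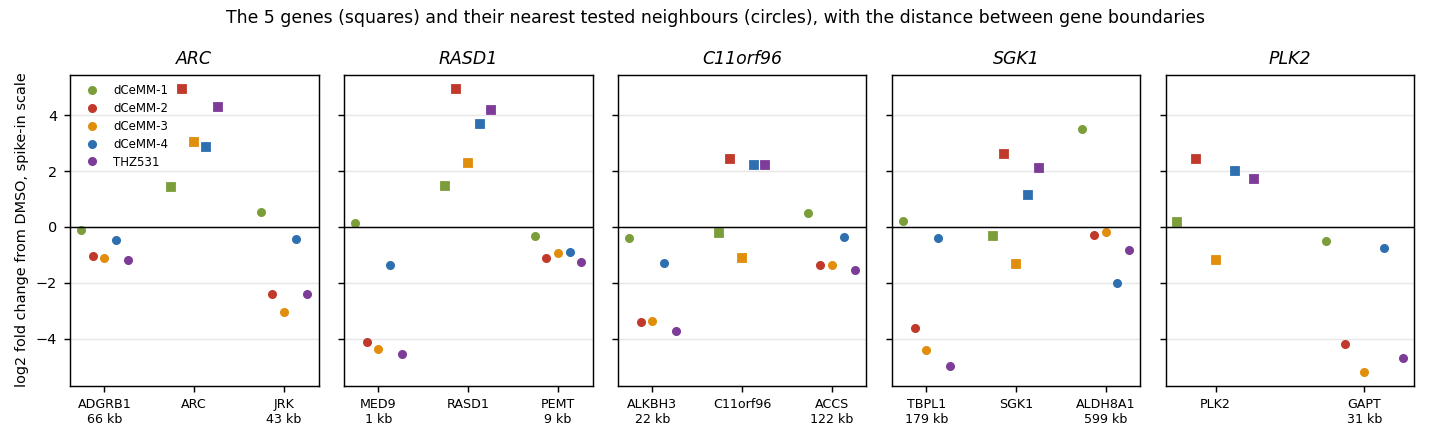
Log2 fold change from DMSO on the spike-in scale of each of the 5 genes (squares) and its nearest tested protein-coding neighbours (circles, with the distance in kb), with each compound. With dCeMM-2, dCeMM-4 and THZ531 every square lies above 0, by values that entered the choice of the genes, and every circle below 0. Of the 9 circles, 8, 5 and 8 passed as lower, beside 83%, 48% and 84.7% of all genes. ALDH8A1 with dCeMM-1, at 3.49, is the highest circle.

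The longest annotated 3′ UTR of each gene was searched for ATTTA, the core of AU-rich elements that mark unstable mRNAs, a motif chosen after the levels had been seen. C11orf96 had 4.92 per kb, SGK1 3.57, PLK2 3.33, RASD1 1.22 and ARC 0, where the median of 11962 tested genes was 1.72 per kb and 25.1% had none. These densities rest on few copies: 3 in 610 bases for C11orf96, 7 in 1963 for SGK1 and 2 in 601 for PLK2. RASD1 had 1 in 821 bases and ARC 0 in 1556. The trio with the lower dCeMM-3 values had the denser ATTTA. Of all these genes, 8.78%, 19.9% and 22.9% were at least as dense as C11orf96, SGK1 and PLK2. With 5 genes this is a description only.

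The targets of the compounds were measured in the same libraries. CCNK mRNA, which encodes cyclin K, had log2 fold changes of 0.57 with dCeMM-2, -1.26 with dCeMM-3, 0.78 with dCeMM-4 and -0.34 with THZ531 on the TMM scale. CDK12 mRNA had -2.04, -2.05, 0.06 and -1.38 in the same order, and CDK13 mRNA had -1.16, -2.38, 0.15 and -0.81. Scaled by spike-in reads, CCNK had -1.22 with dCeMM-2, -3.09 with dCeMM-3, 0.20 with dCeMM-4 and -2.19 with THZ531. The part of these differences in the levels of the 5 genes was not tested.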

How the data were processed

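The deposited files give raw read counts per gene, unnormalized, in 1 table per library. Per the submitters' processing notes, Trimmomatic 0.32, STAR 2.5.2b, Picard and HTSeq 0.11.2 were used with GRCh38.p7, and the roles and the strand setting are not given. Identifiers were named by GENCODE 29, which held 57447 of 58051. The 5 genes and all gene lists were chosen with earlier results of these data known.

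Counts were fitted with edgeR 4.0.16 (quasi-likelihood, robust) and limma 3.58.1 in R 4.3.3. Low genes were removed with filterByExpr by group, TMM scaled the endogenous genes, and 1 model held all 18 libraries with 1 coefficient per group (12 residual degrees of freedom). P-values were adjusted by Benjamini-Hochberg over 15055 genes, with a threshold of 0.05. A second fit scaled libraries by the summed counts of 92 ERCC and 7 SIRV rows. Standard errors were derived from the fold change and the F statistic. The text names the 5 genes, examples from each list, the nearest tested neighbours, the 3 genes most like each member, and the targets. List examples came from up to 4 genes per direction and contrast, those with the largest changes past the threshold at 5 CPM or more. Not all of these are named, and in places a larger change was left out. In the counts, HTSeq summary rows were left out; of the reads those rows and the genes held, 4.44% to 9.06% had no feature and 27.0% to 44.4% aligned at several places. Intervals cover 95%, and on summed counts they cover counting error only. Those of fold changes used the degrees of freedom of the TMM fit on both scales. On the spike-in scale they are therefore slightly wider than the test of that fit implies.

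Replicate numbers did not pair the libraries: over 45 same-numbered pairs, deviations from group means correlated at -0.19 to 0.19. On simulated counts for dCeMM-1 against DMSO (13759 genes), 93% of 100 genes changed by a log2 of 1 and 100% of 100 changed by 2 were recovered. The changed genes all had a DMSO mean of at least 1 CPM, and 10 unchanged genes were called. ARC (0.701 CPM in DMSO) and RASD1 (0.176 CPM) lie below that level, so these rates do not cover them. Promoters came from RefSeq (GRCh38.p14). Alternatives were DESeq2 1.42.0 and its size factors, no filter, the 2 groups alone, a replicate block, and leaving out each library. ERCC alone, SIRV alone, TATAAG and ATTTA were chosen after seeing the data. Figures were drawn with matplotlib 3.10.9.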

Additional observations from a re-analysis of the deposited data

How the results depend on the processing

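The spike-in scale was the setting that moved most values. With dCeMM-3 against DMSO it gave C11orf96 -1.10, SGK1 -1.33 and PLK2 -1.18, and for dCeMM-4 against THZ531 it gave C11orf96 0.020 and PLK2 0.30, each opposite in sign to the TMM scale. Beside the genes of interest it also reversed ADGRB1 (-1.03, -1.13 and -1.20 with dCeMM-2, dCeMM-3 and THZ531), PEMT (-1.12, -0.93 and -1.24), ACCS (-1.38, -1.38 and -1.53), ALDH8A1 (-0.29 and -0.18 with dCeMM-2 and dCeMM-3), JUN with dCeMM-3 (-0.091) and NDRG1 with dCeMM-3 and THZ531 (-0.12 and -0.61). On that scale the immediate early genes called higher and lower were 5 and 4 with dCeMM-1, 10 and 18 with dCeMM-2, 1 and 34 with dCeMM-3 and 10 and 25 with THZ531, and 14 were higher with dCeMM-4. Glucocorticoid-induced genes gave 0 and 0 with dCeMM-1, 1 and 15 with dCeMM-2, and 0, 4 and 0 higher with dCeMM-3, dCeMM-4 and THZ531. Relatives and partners gave 0 and 0, 2 and 17, 0 and 19, and 3 and 14 with dCeMM-1 to dCeMM-4, and 0 higher with THZ531. The spike-in scale takes the overall shift of all genes into the fold changes by construction. Of the relatives and partners, 5 in place of 8 were lower with dCeMM-4 under DESeq2, and likewise under its size factors, and 2 in place of 4 were lower with dCeMM-1 with no filter; the cause was not tested. Leaving out 1 library gave 2 to 5 relatives higher and 2 to 4 lower with dCeMM-1. The ARC call with dCeMM-1 held without any 1 library on the TMM scale (log2 fold change 1.15 to 1.67, edgeR adjusted p 0.000364 to 0.0110), and on the spike-in scale the number of the 5 genes called was 0 without DMSO replicate 2 and 1 otherwise. RASD1 with dCeMM-1 had edgeR adjusted p from 0.0733 to 0.313. With the replicate block 1 of the 5 genes was called with dCeMM-1, and 202 of 202 results counted as unchanged. Tested results counted so if they stayed on their side of the threshold, and counts of genes if their ratio stayed within a set limit. Untested values did if they moved by less than the SD between libraries. By the same rules, ERCC or SIRV counts alone left all 26 spike-in results unchanged. Depth limits RASD1 and ARC most, with 7 and 33 reads over the 3 DMSO libraries.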
